A study of Mus musculus with 18 samples.

Results

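The 7 noncoding snoRNA host genes Gas5, Snhg1, Snhg3, Snhg5, Snhg6, Snhg8 and Snhg12 were followed in ribosome-protected fragments (RPF) and in mRNA of mouse fibroblasts. They were taken by name, whatever their values, from the 24035 genes that the count files list, and all 7 were listed. The cells were NIH3T3, an established line of mouse embryonic fibroblasts, grown in DMEM with 10% serum. In the first group WT cells had received 200 nM Torin1, which blocks mTOR at its ATP site, for 3 h. In the second group, C1483Y, the cells carried a coding change in Mtor (G4448A, counted along the coding sequence) made with CRISPR and were given vehicle. The third group was WT cells given vehicle. Each group had 3 RPF libraries and 3 mRNA libraries, 18 in all, and the labels say neither how many edited clones there were nor whether replicates were separate cultures, so p-values measure only the spread between these libraries.

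A snoRNA host gene is transcribed as a long RNA whose introns hold small nucleolar RNAs (snoRNAs), which guide the chemical modification and the processing of ribosomal RNA. After splicing, the introns yield the snoRNAs, while the joined exons of noncoding hosts hold no long reading frame. In mammalian cells these spliced RNAs are known to enter the cytoplasm, to be bound by ribosomes and to be degraded by nonsense-mediated decay, so that Gas5 (growth arrest specific 5) builds up when translation is blocked. Many host genes, coding or not, start with a terminal oligopyrimidine (TOP) tract, a C followed by a run of pyrimidines at the first base, through which mTOR controls the translation of ribosomal protein mRNAs.

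All 7 genes are annotated as lncRNA in RefSeq (GRCm38.p6, the assembly that mm10 is made from). Gas5 lies on chromosome 1 from 161034601 to 161038539 with 8 annotated snoRNAs inside its span, and Snhg1 on chromosome 19 from 8723487 to 8726326, also with 8. Snhg12 lies on chromosome 4 from 132308678 to 132311024 with 4 snoRNAs, and Snhg3 on the same chromosome from 132351933 to 132353686 with 2. Snhg5 lies on chromosome 9 from 88521052 to 88522897 with 2, Snhg6 on chromosome 1 from 9942025 to 9944118 with 1, and Snhg8 on chromosome 3 from 123507552 to 123508336 with 1. The span of Gas5 overlaps Zbtb37 and that of Snhg6 overlaps Mcmdc2. No source used here states whether the authors counted by strand, so reads of overlapping genes may not have been told apart.

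The annotated starts are shown because a TOP tract is the feature that would tie these RNAs to mTOR. Each line gives 50 bases of RefSeq sequence of the gene's own strand (GRCm38.p6), 20 before the annotated start and 30 from it onwards, and capitals mark a TOP-like tract, which is a C followed without a break by at least 4 pyrimidines (C or T), with that C within 10 bases of the start, searched on the gene's strand only. Gas5 has 2 annotated starts, and Snhg6 had no entry in the promoter table.
Gas5, upstream start, chr1:161034581-161034630, plus strand: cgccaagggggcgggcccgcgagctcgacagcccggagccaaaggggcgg
Gas5, downstream start, chr1:161035146-161035195, plus strand: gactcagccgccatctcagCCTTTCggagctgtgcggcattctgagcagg
Snhg1, chr19:8723467-8723516, plus strand: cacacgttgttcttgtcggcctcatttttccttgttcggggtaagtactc
Snhg3, chr4:132353657-132353706, minus strand: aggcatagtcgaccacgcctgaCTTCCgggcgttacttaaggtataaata
Snhg5, chr9:88522868-88522917, minus strand: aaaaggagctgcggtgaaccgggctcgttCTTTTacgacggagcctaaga
Snhg8, chr3:123508307-123508356, minus strand: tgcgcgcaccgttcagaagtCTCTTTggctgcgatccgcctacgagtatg
Snhg12, chr4:132308658-132308707, plus strand: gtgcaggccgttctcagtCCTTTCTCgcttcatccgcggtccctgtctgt
Rack1 (Gnb2l1 in the files), chr11:48800340-48800389, plus strand: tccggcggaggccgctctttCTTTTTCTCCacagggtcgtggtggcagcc
Eef2, chr10:81176611-81176660, plus strand: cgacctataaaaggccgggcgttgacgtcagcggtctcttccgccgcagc
Rack1 and Eef2 are protein-coding hosts set beside them. Snhg8 has its C at the annotated start itself, Gas5 1 base before its downstream start, Snhg12 2 bases before and Snhg3 2 bases after, while the short tract of Snhg5 starts 9 bases downstream. The motif was found at 5 of the 7 starts of the noncoding hosts (71.4%), in 5 of the 6 genes with an entry. It was also found at 30.7% of all 32851 starts in the table, at 30.1% of lncRNA starts and at 8 of 24 starts of protein-coding snoRNA hosts (33.3%), Eef2 not among them, so a match is a description of the letters at an annotated start and no more.

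Gene reads per library came to 4681444 to 42821399 in RPF and 4418496 to 94297079 in mRNA, and 3 reads, the fewest taken as detection, correspond to 0.07 to 0.641 ppm of gene reads in RPF and 0.032 to 0.679 ppm in mRNA. Levels are given as CPM, the reads on a gene as ppm of the library total after TMM scaling within the assay; since exon lengths were not at hand, no level is compared between genes. The mRNA libraries varied far more than the RPF libraries, with a median biological coefficient of variation of 2.19 against 0.9. Some libraries stood apart from the rest. The mRNA library labelled Torin1 replicate 3 and the one labelled C1483Y replicate 2 held nearly the same values (Pearson r = 0.999 over log2(CPM + 1), while the next closest pair of mRNA libraries reached 0.482). Under Torin1, and in part for C1483Y, the members' mRNA fold changes are therefore given with and without both libraries. Both held Fn1 (fibronectin, a fibroblast marker) at WT-like levels, 3180 CPM in the one labelled Torin1 and 2380 CPM in the one labelled C1483Y, against 2000 to 3420 CPM in WT, and both held little of the neuronal tubulin Tubb3, 0.197 and 0.0851 CPM, against 0.0277 to 0.0452 CPM in WT. The other C1483Y mRNA libraries had 45.0 and 23.3 CPM of Fn1 and 1350 and 337 CPM of Tubb3. In these markers the library labelled C1483Y replicate 2 was like WT and unlike the other libraries of its group. The RPF libraries labelled C1483Y had little of the fibroblast markers and carried markers of neurons, as described with their results. In Torin1 and WT cells the fibroblast markers were abundant in RPF, with summed levels of 16900 to 25500 CPM under Torin1 and 23200 to 32800 CPM in WT.

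In RPF, Torin1 left the noncoding hosts without a detectable change, while many protein-coding hosts, most of them ribosomal protein genes, lost fragments. edgeR's quasi-likelihood test called 0 of the 6 members that passed the low-count filter, where 0.749% of all 11085 genes tested were called (82 lower, or 0.74%, and 1 higher, or 0.00902%). None of the 6 had an unadjusted p under 0.05, and DESeq2 called 0 as well, though it gave an adjusted p to Gas5 alone (0.835). The protein-coding snoRNA hosts were mostly ribosomal protein genes, with translation factor, chaperone and other genes that hold snoRNAs in their introns. Of these, 22 of 35 tested fell and 0 rose (26 fell and 0 rose by DESeq2, which called 3.57% of genes lower). The 22 were ribosomal protein genes apart from Eef1b2, Eef2, Hspa8 and Rack1. Hosts not called, picked here to show other classes, included Eif4a2 (log2 fold change -0.38), Hspa9 (-0.29), Ncl (-0.24), Nap1l4 (-0.08) and Tnpo2 (0.13). The median log2 fold change was -0.22 over the 6 noncoding hosts, -1.8 over the 35 coding hosts and 0.03 over all genes tested.

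Gas5, whose spliced RNA accumulates in growth-arrested cells and whose introns carry box C/D snoRNAs, took 79.9% to 100% of the reads of all 7 genes in each RPF library. Its RPF level was 384, 2980 and 1420 CPM in Torin1 replicates 1, 2 and 3, against 316, 718 and 1370 CPM in WT replicates 1, 2 and 3. Torin1 replicate 2 was the highest of the 6 libraries and WT replicate 1 the lowest, and the groups overlapped. The mean was 1590 ± 1310 CPM under Torin1 and 800 ± 530 CPM in WT (SD, n = 3 each), a log2 fold change of 0.99 ± 0.78 (SE) with a 95% interval from -0.72 to 2.71 and an adjusted p of 1 by edgeR. Leaving out 1 library at a time moved it over a range of 0.17 to 1.62, with 0.17 without Torin1 replicate 2, 1.58 without Torin1 replicate 1 and 1.62 without WT replicate 3. Gas5 was not tested against the coding hosts.

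Snhg1, host of a cluster of box C/D snoRNAs, read 21.0, 35.5 and 32.3 CPM in Torin1 replicates 1, 2 and 3, against 33.9, 40.1 and 53.7 CPM in WT. The Torin1 libraries lay toward the low side, with 1 of them above the lowest WT library. The log2 fold change was -0.52 ± 1.3 (SE), with an interval from -3.38 to 2.33. Snhg5, whose introns carry box C/D snoRNAs of the Snord50 family, read 9.31, 39.2 and 9.26 CPM under Torin1, against 22.3, 34.8 and 23.4 CPM in WT. Replicate 2 was the highest library in both groups, and the other Torin1 libraries lay below every WT library. The log2 fold change was -0.48 ± 1.26, with an interval from -3.25 to 2.29. Both intervals hold 0 and also the coding hosts' median, so at this spread a fall of that size and no change could not be told apart for either gene.

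The other hosts had fewer reads. Snhg6, host of Snord87, read 7.75, 18.6 and 6.09 CPM in Torin1 replicates 1, 2 and 3, against 4.77, 1.12 and 12.1 CPM in WT, and the groups overlapped (log2 fold change 0.85 ± 1.51, interval -2.46 to 4.16). Snhg12, host of Snora16a, Snora44, Snora61 and Snord99, read 6.42, 0.0418 and 5.91 CPM under Torin1, against 7.90, 4.01 and 0.0718 CPM in WT. In each group 1 library rested on a single read, and the log2 fold change of 0.05 ± 2.12 had an interval from -4.6 to 4.7.

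Snhg8 and Snhg3 were the members with the fewest fragments under Torin1. Snhg8, host of Snora24, read 3.90, 0 and 0.0882 CPM (65, 0 and 3 reads) in Torin1 replicates 1, 2 and 3, against 5.59, 8.50 and 7.61 CPM (75, 386 and 106 reads) in WT. It was the 1 member whose Torin1 libraries all lay below its WT libraries, which 10.7% of all genes tested also did. The log2 fold change was -2.44 ± 2.3, with an interval from -7.48 to 2.6 and an adjusted p of 1 by edgeR. It was -6.99 without Torin1 replicate 1, which held nearly all the Torin1 reads, and -4.58 with a replicate block (adjusted p = 1 each). Snhg3, host of Snora73, an H/ACA snoRNA of ribosomal RNA processing, did not pass the filter and was not tested. It had 0 reads in every Torin1 RPF library, against 67, 228 and 0 reads in WT replicates 1, 2 and 3. Against a floor of 3 reads over the Torin1 group the summed level was at least 101-fold lower under Torin1, a bound that covers counting error only and rests on 2 of the 3 WT libraries.

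**Figure D1:**
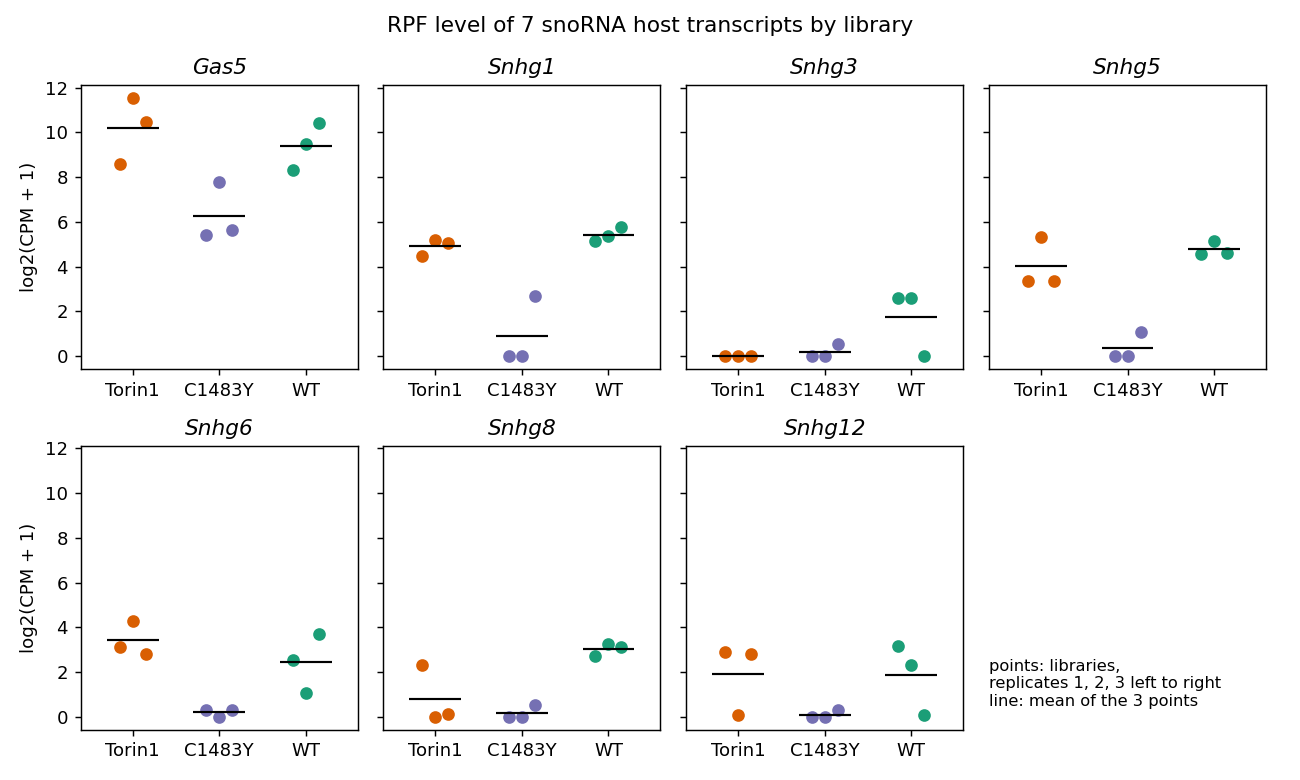
RPF level of each noncoding snoRNA host as log2(CPM + 1), with 1 point per library for Torin1, C1483Y and WT cells (n = 3 each) and a line at the mean of the points. Gas5 spans 384 to 2980 CPM under Torin1 and 316 to 1370 CPM in WT, while the C1483Y libraries of Gas5, Snhg1, Snhg5, Snhg6 and Snhg8 lie below all WT libraries.

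The 4 protein-coding hosts with the most RPF reads show the contrast in the libraries themselves. Eef2, the elongation factor that moves the ribosome along the mRNA, read 836, 1020 and 1030 CPM in Torin1 replicates 1, 2 and 3, against 4420, 7040 and 4620 CPM in WT, and fell by 2.48 ± 0.24 (SE) on the log2 scale (edgeR adjusted p = 0.00126). Rack1 (listed as Gnb2l1), a protein of the small ribosomal subunit, read 666, 794 and 595 CPM under Torin1, against 2490, 2940 and 2770 CPM in WT, and fell by 2.00 ± 0.25 (adjusted p = 0.00305). Hspa8, a constitutive chaperone, read 1600, 1080 and 1350 CPM under Torin1, against 5240, 6110 and 5070 CPM in WT, and fell by 2.03 ± 0.22 (adjusted p = 0.00142). Eif4a1, the helicase of translation initiation, read 3350, 3230 and 3240 CPM under Torin1, against 5130, 4690 and 4010 CPM in WT. Its log2 fold change of -0.49 ± 0.2 did not pass the threshold (adjusted p = 0.967), although the groups did not overlap. Among replicates of these coding hosts the values stayed within a narrow range, and those of Gas5 did not. In Nop56 and Nop58, coding hosts that are themselves core proteins of box C/D snoRNPs, the log2 fold changes were -0.08 and -0.06 and neither was called (adjusted p = 1 each). Both were picked from the list for their function after their values were seen.

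**Figure D2:**
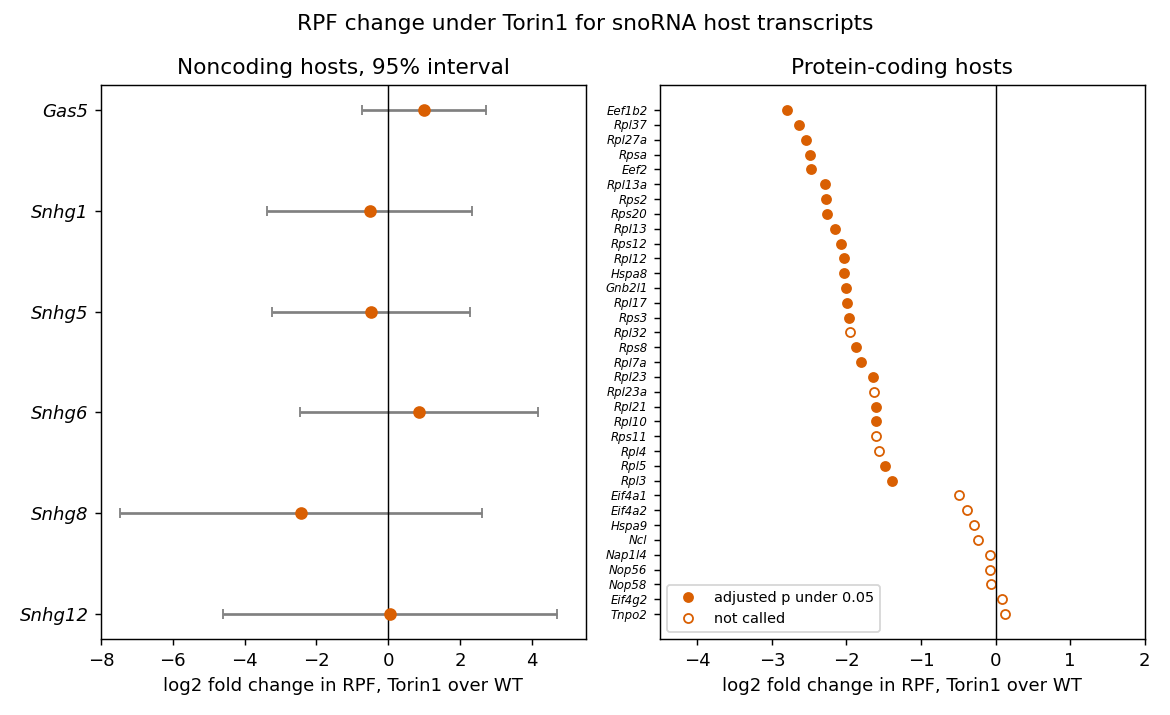
Log2 fold change in RPF, Torin1 over WT, for the 6 noncoding hosts tested (left, bars are 95% intervals) and the 35 protein-coding hosts tested (right, filled points have an edgeR adjusted p under 0.05). The 22 filled points lie at -1.39 or below, while the intervals of all 6 noncoding hosts cross 0.

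In 4 further lists set around the hosts neither edgeR nor DESeq2 called a gene in RPF under Torin1. Of 7 tested noncoding snoRNA hosts outside the group, 0 were called by edgeR (0 with an unadjusted p under 0.05, and DESeq2 gave none of them an adjusted p), with a median log2 fold change of -2.17. Snhg4 read 9.13, 0 and 0 CPM under Torin1, against 17.4, 27.8 and 26.9 CPM in WT (log2 fold change -2.98 ± 2.24). Rian, a maternally expressed lncRNA with many box C/D snoRNAs, read 9.67, 25.8 and 12.9 CPM under Torin1, against 6.63, 10.0 and 5.96 CPM in WT (1.1 ± 1.62). Of the 18 tested snoRNP proteins and assembly factors, which package snoRNAs, 0 were called (1 at an unadjusted p under 0.05, and 0 of the 12 given an adjusted p by DESeq2), and their median was -0.36. Fibrillarin (Fbl), the methyltransferase of box C/D particles, read 278, 442 and 278 CPM under Torin1, against 391, 528 and 363 CPM in WT (-0.36 ± 0.39). Of the 16 nonsense-mediated decay factors, 0 were called (0 unadjusted, and 0 of the 11 given an adjusted p by DESeq2). The helicase Upf1, at the centre of that pathway, read 162, 220 and 171 CPM under Torin1, against 169, 234 and 197 CPM in WT (-0.12 ± 0.31). Of 13 tested noncoding RNAs that host none of the listed snoRNAs, 0 were called (1 unadjusted, and 0 of the 3 given an adjusted p by DESeq2), with a median of 0.59.

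At the mRNA level edgeR called 0 of 6 members under Torin1 (0 with an unadjusted p under 0.05), where 0.014% of 7121 genes tested were called. DESeq2 called 1 member of 6, Snhg5, as lower, and 3.1% of the genes it gave an adjusted p were called lower. Gas5 mRNA read 371, 268 and 29.2 CPM in the libraries labelled Torin1 replicates 1, 2 and 3, against 170, 415 and 289 CPM in WT. The third Torin1 library, 1 of the near-identical pair, was the lowest of the 6, and the log2 fold change of -0.39 ± 2.06 became 0.13 without that pair. Snhg1 mRNA read 84.4, 135 and 651 CPM under Torin1, against 38.6, 333 and 31.4 CPM in WT. Its log2 fold change of 1.11 ± 1.99 turned to -0.29 without the pair. For both genes that library set the sign.

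Among the tested members Snhg5 mRNA had the log2 fold change farthest from 0. It read 0.35, 6.29 and 0.0328 CPM (5, 346 and 1 reads) under Torin1, against 0.332, 642 and 102 CPM (12, 39272 and 6748 reads) in WT. The high values were those of WT replicates 2 and 3, while WT replicate 1 lay within the Torin1 range. edgeR gave a log2 fold change of -6.79 ± 3.62 with an adjusted p of 0.719, and DESeq2 gave -6.8 with an adjusted p of 0.0145. Without the near-identical pair edgeR gave -6.21 (adjusted p = 0.702).

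In Torin1 and in WT, the remaining members had clear mRNA reads in 1 or 2 libraries of a group and were near 0 in the rest. Snhg6 mRNA read 0, 0.0364 and 66.0 CPM under Torin1, against 77.3, 0.0163 and 18.5 CPM in WT. Snhg8 mRNA read 21.4, 42.0 and 0 CPM under Torin1, against 0.0554, 24.8 and 0 CPM in WT. Snhg12 mRNA read 9.52, 98.8 and 0.0657 CPM under Torin1, against 0, 0 and 25.4 CPM in WT. In each of the 3 genes at least 1 library per group was at or near 0 while another read 24.8 CPM or more, so the fitted log2 fold changes (-0.54 ± 3.79, 1.35 ± 4.04 and 2.09 ± 4.11) cannot be told from 0. Without the near-identical pair they were -10.36 (edgeR adjusted p = 0.794), 1.93 and 2.69. The 66.0 CPM of Snhg6 under Torin1 came from the library of that pair. Snhg3 mRNA had 3466 reads in Torin1 replicate 2 and 0 reads in all 8 other mRNA libraries. In Torin1 and WT this on-and-off pattern was not seen for Gas5, which had reads in every library of both assays. The pattern was not limited to the hosts. Upf1, a decay factor, had 0, 0 and 5488 mRNA reads in Torin1 replicates 1, 2 and 3 and 1651, 3 and 1 in WT.

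**Figure D3:**
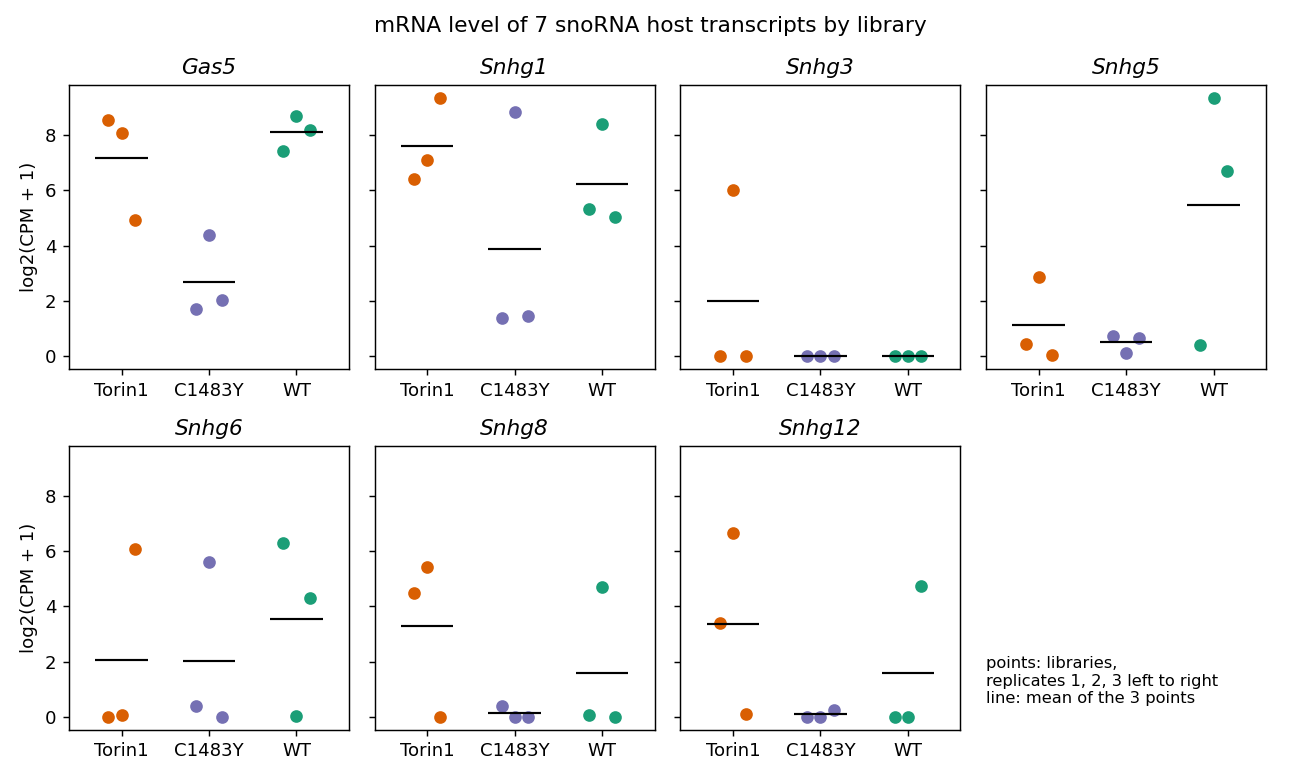
mRNA level of each noncoding snoRNA host as log2(CPM + 1), with 1 point per library for Torin1, C1483Y and WT cells (n = 3 each) and a line at the mean. Snhg5 lies between 0.0328 and 6.29 CPM under Torin1 and between 0.332 and 642 CPM in WT, and for Snhg3 a single Torin1 library holds all the reads.

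Translational efficiency (TE), the RPF change of a gene relative to its mRNA change, was tested as an interaction over all 18 libraries. edgeR called 0 of 6 members under Torin1 (0 with an unadjusted p under 0.05, 0 by DESeq2), where 0.0283% of 7072 genes tested were called. Gas5 had a log2 TE change of 1.44 ± 1.39 (SE), with an interval from -1.39 to 4.27, and 0.93 without the near-identical mRNA pair. Snhg5 had 6.38 ± 3.31 (adjusted p = 0.534), beside log2 fold changes of -0.48 in RPF and -6.79 in mRNA. Snhg6 had 1.44 ± 3.94 (11.11 without the near-identical pair, edgeR adjusted p = 0.186) and Snhg1 -1.58 ± 2.59 (-0.17 without that pair). Snhg12 had -1.98 ± 3.99 and Snhg8 -3.74 ± 4.07. Beside them 34 of 35 protein-coding hosts had a TE change below 0, with a median of -1.74, though edgeR called Eef2 alone (-3.16 ± 0.51, adjusted p = 0.00213). By edgeR 19 of the 35 had an unadjusted p under 0.05, and DESeq2 called 3 lower, as it did 5.17% of the genes it gave an adjusted p. The median over the 6 noncoding hosts was -0.07, beside -0.08 over all genes tested.

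The share of a transcript in RPF relative to its share in mRNA, in WT cells, is a ratio within a gene, so its own length cancels. The part of each transcript that reads came from is not known, so percentiles among other genes are a description only. Gas5 had a mean RPF level of 800 CPM and a mean mRNA level of 291 CPM, a ratio of 2.75. This was percentile 78.7 of the 6978 genes that passed the low-count filter in both assays and had mRNA reads in WT, whose median ratio was 0.965. Snhg8 had a ratio of 0.873 (percentile 46.7), Snhg12 0.472 (27.7), Snhg1 0.317 (18.8), Snhg6 0.188 (10.6) and Snhg5 0.108 (5.1). Malat1, a lncRNA held in the nucleus, had 0.121 (5.9), and Neat1, the scaffold of nuclear paraspeckles, 0.0514 (1.9). Single replicates weigh on the low ratios, when their RPF and mRNA libraries are left out together. On the log2 scale the ratio of Snhg5 was -3.19, or -1.31 without both libraries of WT replicate 2. That of Snhg6 was -2.39, or -0.47 without both libraries of WT replicate 1. edgeR called 0 of 6 members in this contrast (0 with an unadjusted p under 0.05, 0 by DESeq2), where 0.481% of 7072 genes were called (12 lower, or 0.17%, and 22 higher, or 0.311%), so no member's ratio was shown to differ from 1. For Gas5 the log2 ratio was 1.48 ± 1 (interval -0.55 to 3.51) and for Snhg5 -3.19 ± 2.34 (interval -7.96 to 1.58). Counts per gene hold neither fragment lengths nor positions, so whether the RPF reads come from ribosomes or from other protected RNA was not tested.

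Reads on snoRNA genes were looked at after the values of Gas5 had been seen, and counts do not tell mature snoRNAs from other RNA of those genes. The files list 119 snoRNA and scaRNA genes, which no ribosome translates, and they took 6980, 15500 and 13200 ppm of gene reads in the RPF libraries of Torin1 replicates 1, 2 and 3 and 1380, 1070 and 389 ppm in those of C1483Y, against 3980, 5820 and 8970 ppm in WT. In the same libraries Gas5 took 381, 3580 and 1550 ppm under Torin1 and 39.3, 236 and 31.5 ppm in C1483Y, against 319, 761 and 1460 ppm in WT. Within Torin1 and within WT, the libraries had the same order in both measures, with replicate 1 lowest. In C1483Y they did not, since replicate 1 was highest in snoRNA reads and replicate 2 in Gas5. Of the 54 snoRNA genes tested in RPF under Torin1, edgeR called 0 (2 with an unadjusted p under 0.05), with a median log2 fold change of 0.92, beside 0.99 for Gas5. DESeq2 called 0 as well, though it gave an adjusted p to only 9 of them. The part of these snoRNA reads in the Gas5 values was not tested.

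**Figure D4:**
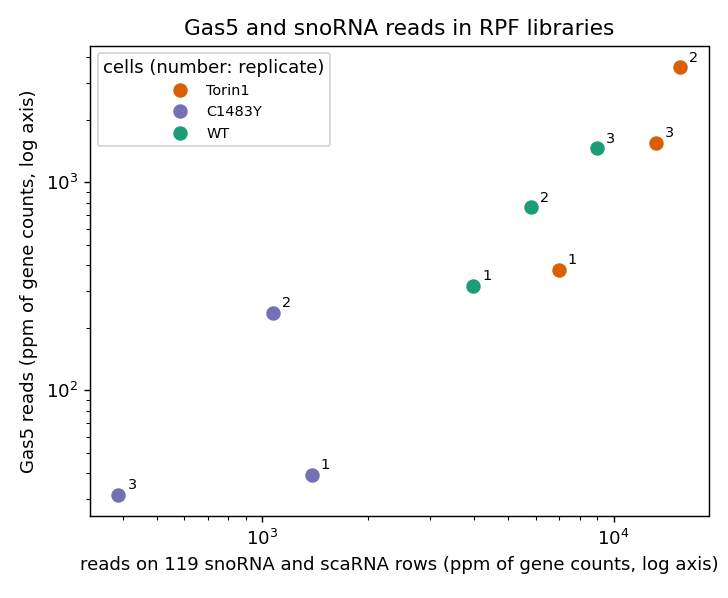
Reads on Gas5 against reads on 119 snoRNA and scaRNA genes in the 9 RPF libraries, both in ppm of gene reads on log axes, coloured by cells and numbered by replicate. Torin1 libraries lie at 6980 to 15500 ppm of snoRNA reads and WT libraries at 3980 to 8970, with the C1483Y libraries at the low end of both axes.

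By Pearson correlation of log2(CPM + 1) over the 9 RPF libraries, among 11085 genes, the pattern most like that of Gas5 was that of Snord43 (r = 0.994), a box C/D snoRNA whose host is the ribosomal protein gene Rpl3. Snord43 read 10.2, 118 and 27.5 CPM in RPF of Torin1 replicates 1, 2 and 3, 0, 4.28 and 0 CPM in C1483Y, and 7.00, 22.7 and 41.6 CPM in WT. The next were Uhrf2 (0.979), an E3 ubiquitin ligase of chromatin, and Tcf3 (0.957), a transcription factor. For Snhg1 they were Ifitm3 (0.993), an interferon-induced membrane protein, Fbxl6 (0.992) and Pcolce (0.991), an enhancer of procollagen processing. For Snhg5 they were Orc4 (0.988), a subunit of the origin recognition complex, Tmbim1 (0.985) and H60b (0.983). These are descriptions over libraries that share 3 groups, and a low C1483Y group alone gives a high r.

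In C1483Y cells the mean RPF level of every member lay below that of WT, though for Snhg3 and Snhg12 single libraries overlapped. edgeR called 2 of 6 tested members lower, Gas5 and Snhg5, where 10.7% of 11085 genes were called lower and 18.6% in either direction, and DESeq2 called 4 lower, adding Snhg1 and Snhg6, where it called 18% of genes lower. The median log2 fold change was -5.41 over the 6 and -0.27 over all genes. In 5 of 6 members the C1483Y and WT libraries did not overlap, which held in this direction for 27.4% of all genes tested. Noncoding hosts outside the group had a median of -5.14, with 0 of 7 called (1 with an unadjusted p under 0.05, and 0 of the 5 given an adjusted p by DESeq2), whereas 5 of 35 protein-coding hosts fell and 8 rose (7.91% of all genes tested rose), with a median of 0.09.

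Gas5 RPF read 42.0, 216 and 49.1 CPM in C1483Y replicates 1, 2 and 3, against 316, 718 and 1370 CPM in WT. Every C1483Y library lay below every WT library. The log2 fold change was -2.97 ± 0.84 (SE), with an edgeR adjusted p of 0.03. The call was lost without C1483Y replicate 1 (adjusted p = 0.0879), C1483Y replicate 3 (0.0913), WT replicate 2 (0.0521) or WT replicate 3 (0.108). Snhg5 RPF read 0, 0 and 1.12 CPM (0, 0 and 5 reads) in C1483Y, against 22.3, 34.8 and 23.4 CPM in WT. It fell by 6.16 ± 1.63 on the log2 scale (edgeR adjusted p = 0.023), a call that was lost without WT replicate 2 (0.078) or WT replicate 3 (0.0517) and with the C1483Y and WT libraries fitted alone (0.0574).

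The other members had few or no fragments left in C1483Y cells. These RPF libraries were the shallowest, with 4681444, 4687506 and 6962108 gene reads, against 13282074, 42821399 and 13035243 in WT. Reads placed at more than 1 site were 42.9%, 47.5% and 37.8% of their counted lines, against 26.9%, 28.0% and 35.0% in WT. The read counts below are not scaled for depth, while the fold values by summed level are. Snhg1 had 0, 0 and 24 reads in C1483Y, against 455, 1820 and 748 in WT (log2 fold change -4.57 ± 1.53, edgeR adjusted p = 0.0595). Snhg6 had 1, 0 and 1 reads, against 64, 51 and 169 in WT, 27.3-fold lower by summed level with a counting interval of 7.48 to 226. Snhg8 had 0, 0 and 2 reads, against 75, 386 and 106 in WT, 54.4-fold lower (15 to 451). Snhg12 had 0, 0 and 1 reads, against 106, 182 and 1 in WT, 55.5-fold lower (9.88 to 2200). Snhg3 had 0, 0 and 2 reads, against 67, 228 and 0 in WT, 28.3-fold lower (7.77 to 235). These intervals are at 95% and cover counting error only. The order of mean RPF levels was Torin1, WT, C1483Y for Gas5, Snhg6 and Snhg12 and WT, Torin1, C1483Y for Snhg1, Snhg5 and Snhg8, and edgeR called Torin1 apart from WT for none of them, and C1483Y apart from WT for Gas5 and Snhg5 alone. For Snhg3 it was WT, C1483Y, Torin1, with no test.

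The same libraries departed from the fibroblast label. Of 15 fibroblast markers, 14 fell in C1483Y RPF, and their summed level was 2080 to 3570 CPM in C1483Y, against 23200 to 32800 CPM in WT, with Fn1 at 129, 332 and 394 CPM in C1483Y and 4370, 7100 and 5080 CPM in WT. The 8 neuron and glia markers summed to 1330 to 1870 CPM in C1483Y and 15.7 to 22.8 CPM in WT, with 3 of 4 tested higher and 2 (Rbfox3 and Snap25) at 0 in all C1483Y libraries. Map2, the remaining tested marker, read 0.228, 0 and 0 CPM in C1483Y replicates 1, 2 and 3, against 6.63, 1.5 and 0 CPM in WT. The 7 epithelial markers summed to 27.6 to 114 CPM in C1483Y and 0 to 0.0718 CPM in WT, with 2 (Krt19 and Cldn7) at 0 in all C1483Y libraries. Most of this was Krt18, at 39.5, 114 and 27.6 CPM in C1483Y replicates 1, 2 and 3. There Krt8 read 12.6, 0 and 0 CPM, and Epcam and Cdh1 had at most 2 reads in a library. The 7 listed leukocyte and endothelial markers summed to 0 to 17.3 CPM in C1483Y and 0.0718 to 8.99 CPM in WT, with all but Kdr, 6 in number, at 0 in all C1483Y libraries. The edit, the line it was made in and the identity of the libraries cannot be told apart in this design, nor can fewer cells of a type and less RNA per cell in such bulk samples.

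In mRNA of C1483Y cells edgeR called 0 of 6 members (2 with an unadjusted p under 0.05, Gas5 and Snhg5, and the same 2 called lower by DESeq2, as were 9.46% of genes by that tool), where edgeR called 0.323% of 7121 genes. Gas5 mRNA read 2.22, 19.6 and 3.03 CPM in C1483Y replicates 1, 2 and 3, against 170, 415 and 289 CPM in WT. The groups did not overlap, which held for 9.49% of genes in this direction, and the log2 fold change was -5.13 ± 2.45 (edgeR adjusted p = 0.544), or -6.87 without the near-identical pair (adjusted p = 0.14). The C1483Y mRNA libraries held 4418496, 42293513 and 5700601 gene reads, against 26691236, 94297079 and 56337170 in WT. In C1483Y replicates 1 and 3, 95.9% and 90.8% of counted lines were reads placed at more than 1 site. Their read counts, given here without scaling, thus come from far fewer gene reads than those of WT. Snhg5 mRNA had 2, 4 and 3 reads in C1483Y, against 12, 39272 and 6748 in WT (log2 fold change -9.22 ± 4.03, adjusted p = 0.544). Snhg1 mRNA read 1.59, 457 and 1.70 CPM in C1483Y, against 38.6, 333 and 31.4 CPM in WT, and its log2 fold change of 0.19 ± 1.97 turned to -6.43 without the pair. Snhg6 mRNA had 1, 2253 and 0 reads in C1483Y, against 2792, 1 and 1228 in WT. Its 2253 reads were in the library of the near-identical pair, and its log2 fold change of -0.99 ± 3.82 became -7.77 without that pair. Snhg8 had 1, 0 and 0 reads, against 2, 1518 and 0 in WT, and Snhg12 0, 0 and 1, against 0, 0 and 1684 in WT, so for both a single WT library carried the level. The order of mean mRNA levels was WT, Torin1, C1483Y for Gas5, Snhg5 and Snhg6, Torin1, WT, C1483Y for Snhg8 and Snhg12, and Torin1, C1483Y, WT for Snhg1, and edgeR called neither group apart from WT for any of them. The library labelled C1483Y replicate 2, the high one for Snhg1, is the one whose Fn1 and Tubb3 levels went against its label. For TE in C1483Y cells edgeR called 0 of 6 members (0 with an unadjusted p under 0.05, 0 by DESeq2) and 0 of 7072 genes (0%; 953 with an unadjusted p under 0.05, 778 called by DESeq2). The log2 TE change of Gas5 was 2.34 ± 1.4, with an interval from -0.52 to 5.2.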

How the data were processed

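RPF and mRNA were sequenced in NIH3T3 cells (Torin1, C1483Y and WT, 3 libraries per group and assay). Per the labels' protocols, RNase I and a Sephacryl S-400 column gave the RPF, heat broke the mRNA, and TruSeq small RNA libraries were run on a HiSeq 2000; molecular identifiers are not named, so PCR copies count as reads. The deposited files hold whole-number read counts per gene and library, not normalized. Per the submitters' processing notes the tools were Bowtie 1.1.2, TopHat2 2.1.1 and HTSeq, with build mm10; settings such as strand are not stated there. Reads placed at more than 1 site (22.2% to 47.5% of counted lines in RPF, 49.3% to 95.9% in mRNA) stood on a summary line and entered no gene. The 5 summary lines and 27 lines that carry dates in place of symbols (0.089% to 0.264% of gene counts) were left out.

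The quasi-likelihood test of edgeR 4.0.16 (R 4.3.3, TMM factors, filterByExpr) was run over all 9 libraries of an assay, or all 18 for TE. The p-values were Benjamini-Hochberg adjusted across every tested gene with 0.05 as the threshold. Only the RPF, mRNA and TE contrasts of Torin1 against WT were also run on simulated counts. The simulated spread was below that of the mRNA and TE fits, so those runs do not cover the spread of these data. DESeq2 1.42.0, other scalings, filters and fits and leaving out each library (for TE and RPF against mRNA, both libraries of a replicate number) were the alternatives. All 7 members are described; for each list of genes around them, at most the 4 with the most RPF reads are named unless stated, and for each member with at least 10 CPM in RPF the 3 genes most like it. Start sequences are RefSeq's (GRCm38.p6; 6 of 7 members and 23 of 36 coding hosts matched). The members, lists and tests were chosen with earlier results of these data known.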

Additional observations from a re-analysis of the deposited data

How the results depend on the processing

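Of 471 values of single members under the alternatives, 417 kept their direction and their side of the threshold, 39 changed sign, 7 lost a call and 8 gained one; the cause was not tested. Numbers of genes called moved more. DESeq2's test called 173 genes for RPF under Torin1 (83 by edgeR), 493 for mRNA under Torin1 (1), 556 for TE under Torin1 (2), 3276 for RPF in C1483Y (2060), 866 for mRNA in C1483Y (23), 778 for TE in C1483Y (0) and 466 for RPF against mRNA in WT (34). Among the members it called 1 in mRNA under Torin1, 4 in RPF and 2 in mRNA of C1483Y cells. DESeq2's size factors gave 0, 0, 0, 11 and 22 genes for mRNA and TE under Torin1, mRNA and TE in C1483Y and RPF against mRNA. Without the low-count filter there were 0, 5, 14, 6 and 66 in the same order. With the groups of a contrast fitted alone, 138 genes were called for RPF and 2 for mRNA under Torin1, and 1 member for RPF in C1483Y. Without the near-identical mRNA pair, 0, 44, 145, 252 and 284 genes were called for mRNA and TE under Torin1, mRNA and TE in C1483Y and RPF against mRNA; TMM over all 18 libraries gave 0 for TE under Torin1 and 19 for RPF against mRNA.

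Leaving out each library in turn gave 33 to 62 genes for RPF and 0 to 1 for mRNA under Torin1, and 1163 to 3161 for RPF and 7 to 172 for mRNA in C1483Y. For TE and RPF against mRNA, the RPF and mRNA libraries of the same group and replicate number were left out together. That gave 2 to 3 genes for TE under Torin1, 0 to 22 for TE in C1483Y and 5 to 16 for RPF against mRNA in WT. Members called stayed at 0 in each of these but RPF in C1483Y, where they were 0 to 3. Under Torin1 the log2 values that changed sign ranged, over those fits, from -0.53 to 1.11 for Snhg12 in RPF; in mRNA from -0.99 to 0.12 for Gas5, -0.3 to 3.09 for Snhg1, -10.37 to 1.28 for Snhg6 and -0.81 to 13.21 for Snhg12; in TE from -13.32 to 1.49 for Snhg12 and -0.39 to 11.41 for Snhg6. In C1483Y the mRNA range was -6.46 to 2.13 for Snhg1, -7.78 to 0.81 for Snhg6, -11.37 to 1.59 for Snhg8 and -11.44 to 4.11 for Snhg12, and the TE range -13.86 to 2.53 for Snhg1, -2.97 to 4.23 for Snhg5, -5.86 to 3.19 for Snhg6, -6.69 to 6.11 for Snhg8 and -9.79 to 3.12 for Snhg12. For RPF against mRNA in WT it was -2.35 to 0.21 for Snhg1, -0.85 to 7.61 for Snhg8 and -2.62 to 10.24 for Snhg12. Without the near-identical pair the sign also changed for Gas5 (0.13) and Snhg1 (-0.29) in mRNA under Torin1, for Snhg1 in mRNA of C1483Y (-6.43), and for Snhg1 (1.89) and Snhg6 (2.58) in TE of C1483Y. DESeq2's size factors turned Snhg8 (-1.21) and Snhg12 (-1.51) in TE of C1483Y and Snhg8 (0.63) in RPF against mRNA.

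Replicates of different groups share numbers but not a stated source. In RPF the same-number correlations of their deviations were small, 0.14, 0.06 and 0.03 between Torin1 and WT and 0.07, 0.03 and 0.04 between C1483Y and WT. All lay above the different-number correlations, which ran from -0.09 to 0.01. Whether the numbers mark a shared batch was not tested. With a replicate block mRNA under Torin1 had 0 genes called, Snhg12 turned to -1.12 in RPF under Torin1, Snhg1 to -2.02 in mRNA of C1483Y, Snhg8 to -0.53 and Snhg12 to -1.36 in TE of C1483Y, and Snhg8 to 4.17 and Snhg12 to 4.61 in RPF against mRNA; under the replicate block Gas5 (adjusted p = 0.00463) and Snhg5 (0.0495) stayed called in RPF of C1483Y. A level under the floor of 3 reads, 0.07 to 0.641 ppm in RPF and 0.032 to 0.679 ppm in mRNA, was not detectable in a library.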

Other observations

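The files list some of the snoRNAs inside the members' spans. Snord87, inside Snhg6, had 156, 1177 and 6568 RPF reads in Torin1 replicates 1, 2 and 3, 0, 0 and 70 in C1483Y, and 55, 524 and 393 in WT, and 0 reads in all 9 mRNA libraries (log2 fold change of RPF under Torin1 2.52 ± 1.69, edgeR adjusted p = 1). Snord22, inside Snhg1, was the reverse, with 3109, 1509 and 846 mRNA reads under Torin1, 868, 942 and 2 in C1483Y and 3648, 30271 and 5729 in WT, but 0, 2 and 175 RPF reads under Torin1, 0, 0 and 1 in C1483Y and 2, 0 and 3 in WT. Snora61, inside Snhg12, fell by 4.99 ± 1.01 on the log2 scale in C1483Y RPF (edgeR adjusted p = 0.00607), and its log2 fold change under Torin1 was -0.06 ± 0.84. Snord47, inside Gas5, had 0, 458 and 132 RPF reads under Torin1, 1, 0 and 13 in C1483Y and 2, 91 and 0 in WT. Snora24, inside Snhg8, was at 0 in all 18 libraries.

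Among the other noncoding RNAs, Rpph1, the RNA of ribonuclease P, rose by 2.80 ± 0.45 on the log2 scale in C1483Y RPF (edgeR adjusted p = 0.00169), reading 12100, 2790 and 5920 CPM in C1483Y, against 807, 863 and 1310 CPM in WT. Meg3, a maternally expressed lncRNA, fell by 5.69 ± 1.62 (adjusted p = 0.0314), reading 0.228, 0 and 0.449 CPM in C1483Y, against 5.74, 19.6 and 9.91 CPM in WT, beside the loss of fibroblast markers in the same libraries, whose part in it was not tested.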
